A study of Mus musculus with 6 samples.

Results

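Immunoglobulin transcripts were followed across bulk RNA-seq libraries of Tregs, the Foxp3-expressing suppressive branch of CD4+ T cells, sorted from mouse spleen. They were taken by name: every row whose gene symbol starts with Ighv, Igkv, Iglv, Igkc, Iglc or Jchain, or is Ighm, Ighd, Igha, Ighe, Ighg1, Ighg2b, Ighg2c or Ighg3. The rule found 38 of the 15944 genes in the table, 5 of them by gene identifier because their symbol was blank, and no row for Ighe. The 38 are 7 heavy chain constant genes, the kappa constant gene Igkc, 3 lambda constant genes, the joining chain gene Jchain, and 11 heavy, 13 kappa and 2 lambda variable genes.

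Both sorts came from naive C57BL/6 mice, whose spleen cells were freed of red cells by lysis and enriched for CD4+ cells on magnetic columns. The RORγt+ sort (3 libraries) held CD3+CD4+ cells positive for a red reporter of Foxp3 and a green reporter of the transcription factor RORγt. The RORγt− sort (3 libraries) held CD3+CD4+ cells positive for the Foxp3 reporter and for the chemokine receptor CCR6, and negative for the RORγt reporter. No B cell marker is named in either gate, and the labels give no age and do not tie libraries to separate animals. The spread behind every p-value is therefore that of the libraries and may be technical. Reads on the listed genes, estimated from the spacing of low values, came to about 9220000 to 14500000 per library. RORγt+ replicate 3 was the shallowest and the least like the rest: its log2 values correlated at 0.932 to 0.938 with those of the other 5 libraries, which correlated at 0.947 to 0.967 with each other. The T cell genes that should define the sorts were abundant in every library: Foxp3 lay between 9790 and 12609 normalized counts and Cd3e between 5409 and 8913.

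An antibody is built from heavy chains and light chains of the kappa or lambda type. B cells join a variable segment to joining segments and splice it to a constant gene, so that an antibody message carries both a variable and a constant part. The constant gene of the heavy chain sets the isotype: resting B cells make IgM and IgD from Ighm and Ighd together, and switched B cells and plasma cells make IgG, IgA or IgE. Jchain encodes the protein that links IgM or IgA units into polymers in antibody-secreting cells. Transcripts of heavy chain constant genes that carry no joined variable segment, called germline or sterile transcripts, are also known, including transcripts of the mu constant region in T cells.

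The sequences that identify the main constant genes are shown first, since most of the immunoglobulin signal rested on them. They are the first 60 coding bases of Ighm (GRCm38, chr12:113422671-113422730, minus strand) and of Igkc (chr6:70726435-70726494, plus strand), from GENCODE release M21. No 31-base window of either gene's transcripts occurred in the transcripts of another gene.
Ighm: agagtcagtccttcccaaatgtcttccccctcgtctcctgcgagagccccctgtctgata
Igkc: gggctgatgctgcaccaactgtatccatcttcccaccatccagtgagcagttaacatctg

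Variable genes belong to families of near copies, so reads can be shared among them. The 3 shown next had the highest mean over the 6 libraries of all variable genes. Up to 300 coding bases of the second exon are given, and capitals mark bases that lie in a 31-base window also found in another gene. The share of windows found elsewhere was 10.6% for Ighv1-47 (chr12:114991113-114991412, minus strand), 57.7% for Igkv1-135 (chr6:67610196-67610495, plus strand) and 48.0% for Igkv10-96 (chr6:68631963-68632260, minus strand).
Ighv1-47: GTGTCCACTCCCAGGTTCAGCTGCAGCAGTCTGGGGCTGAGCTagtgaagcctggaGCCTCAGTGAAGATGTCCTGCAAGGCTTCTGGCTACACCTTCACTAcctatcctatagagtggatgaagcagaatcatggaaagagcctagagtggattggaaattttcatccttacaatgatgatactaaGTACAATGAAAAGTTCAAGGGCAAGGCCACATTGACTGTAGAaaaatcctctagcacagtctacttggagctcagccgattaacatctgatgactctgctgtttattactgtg
Igkv1-135: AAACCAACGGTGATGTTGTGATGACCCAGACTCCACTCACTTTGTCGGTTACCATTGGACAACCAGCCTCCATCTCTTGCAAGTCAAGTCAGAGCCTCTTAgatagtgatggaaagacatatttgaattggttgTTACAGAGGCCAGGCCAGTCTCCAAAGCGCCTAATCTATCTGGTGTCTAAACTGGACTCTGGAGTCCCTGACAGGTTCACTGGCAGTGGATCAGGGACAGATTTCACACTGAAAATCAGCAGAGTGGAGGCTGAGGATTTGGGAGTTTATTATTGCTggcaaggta
Igkv10-96: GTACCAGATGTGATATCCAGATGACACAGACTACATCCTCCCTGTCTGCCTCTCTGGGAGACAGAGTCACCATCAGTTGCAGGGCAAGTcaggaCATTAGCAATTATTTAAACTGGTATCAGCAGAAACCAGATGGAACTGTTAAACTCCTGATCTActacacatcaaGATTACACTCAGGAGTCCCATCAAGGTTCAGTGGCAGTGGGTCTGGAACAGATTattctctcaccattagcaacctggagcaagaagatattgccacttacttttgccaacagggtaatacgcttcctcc

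Ighm, the mu constant gene (chromosome 12, 113418558 to 113422730, minus strand), carried nearly all of the immunoglobulin signal. It stood at 6051, 6889 and 9679 normalized counts in RORγt+ replicates 1 to 3 and at 8019, 9019 and 7611 in RORγt− replicates 1 to 3. The groups overlapped, with both the lowest and the highest library in the RORγt+ sort. The means were 7539 ± 1899 and 8216 ± 724 normalized counts (SD, n = 3), and the log2 fold change, RORγt+ minus RORγt−, was −0.15 ± 0.19 (SE, limma adjusted p = 0.853). In bulk RNA, fewer cells of a type and less RNA per cell cannot be told apart, and this holds for every value given here. Ighm took 87.4% to 97.2% of the summed normalized counts of the 38 genes.

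Per kilobase of transcript, Ighm lay below the T cell receptor constant genes in every library, though closer to them than Igkc or Ighd did. Its level per kilobase was 3564 to 5700 over the 6 libraries, where the α chain constant gene Trac had 8265 to 12365 and the β chain constant gene Trbc1 had 6495 to 9669. Ighm thus lay between 41.5% and 50.8% of Trac in every library, and it ranked 129th to 167th by level per kilobase among 15851 genes with an annotated length. Ighm, Trac, Trbc1 and Trbc2 all had their highest level per kilobase in RORγt+ replicate 3.

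**Figure D1:**
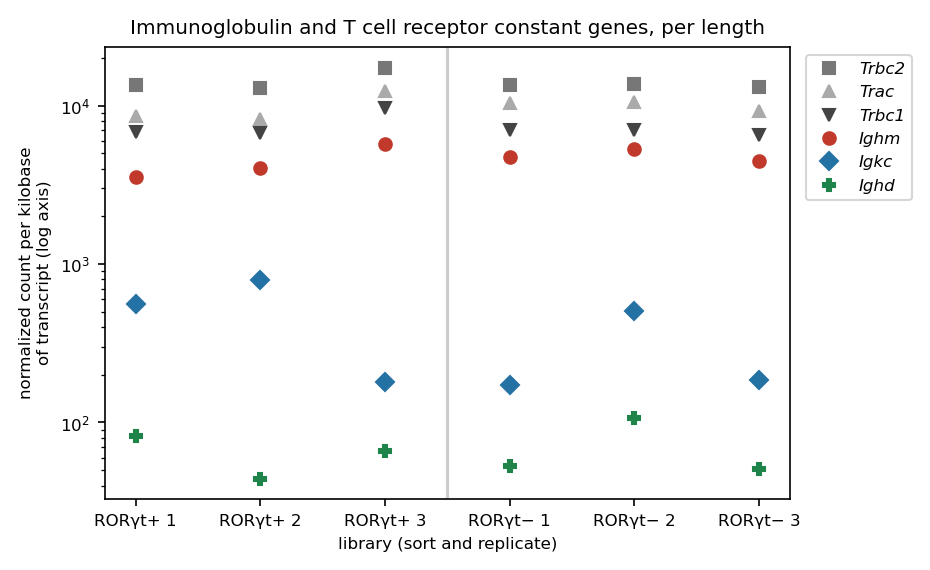
Normalized counts per kilobase of the longest annotated transcript (log axis) of 3 immunoglobulin and 3 T cell receptor constant genes in each of the 6 libraries, 1 point per gene and library. Ighm lies below the T cell receptor genes in all 6, between 3564 and 5700, while Igkc varies from 173 to 798 and Ighd from 44.3 to 107.

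Light chain transcripts were far less abundant than Ighm and differed between libraries of the same sort. Igkc (chromosome 6, 70726435 to 70726966, plus strand), the constant part of kappa light chains, stood at 298, 425 and 95.9 normalized counts in RORγt+ replicates 1 to 3 and at 91.9, 270 and 99.2 in RORγt− replicates 1 to 3. Igkc was high in RORγt+ replicates 1 and 2 and in RORγt− replicate 2, and the groups overlapped. The means were 273 ± 166 and 154 ± 101 (SD, n = 3; log2 fold change 0.76 ± 0.62, limma adjusted p = 0.742). With 1 library left out, that fold change was lowest, 0.32, when RORγt+ replicate 2 was missing and highest, 1.39, when RORγt+ replicate 3 was. Per kilobase, Ighm exceeded Igkc 5.08-fold in RORγt+ replicate 2 and 31.6-fold in RORγt+ replicate 3, with 6.36, 27.3, 10.5 and 24.0 in RORγt+ replicate 1 and RORγt− replicates 1 to 3. As a share of Trac per kilobase, Igkc ranged from 1.46% to 9.66%, a wider spread than that of Ighm. The order of the libraries also differed: RORγt+ replicate 3, the highest in Ighm, was the lowest but 1 in Igkc.

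The lambda constant genes were low. Iglc1 stood at 7.44, 10.97 and 0 normalized counts in RORγt+ replicates 1 to 3 and at 2.04, 11.8 and 2.46 in the RORγt− libraries. Iglc2 stood at 6.47, 13.2 and 1.45 against 0, 20.4 and 0.95. Both were highest in RORγt− replicate 2, followed by RORγt+ replicate 2, and their groups overlapped. Iglc3 stood at 12.7, 6.97 and 8.72 against 0, 2.72 and 0.82, so its RORγt+ libraries all lay above its RORγt− libraries, but the difference did not pass the test (log2 fold change 2.43 ± 0.67, SE, limma adjusted p = 0.238). Kappa made up 88.6% to 97.8% of the summed kappa and lambda constant counts in each library.

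Iglc2 and Iglc3 are near copies, so their split is uncertain: 40.8% of the 31-base windows of Iglc3 and 19.6% of those of Iglc2 also occur in transcripts of other genes, most often in each other. Over 90 aligned coding bases near the start of each gene, Iglc2 and Iglc3 differed at 5 positions, Iglc1 and Iglc2 at 19, and Iglc1 and Iglc3 at 20. Capitals mark the positions that are not the same in all 3, on chr16:19061980-19062069, chr16:19198761-19198850 and chr16:19065590-19065679 for Iglc1, Iglc2 and Iglc3, all on the minus strand.
Iglc1: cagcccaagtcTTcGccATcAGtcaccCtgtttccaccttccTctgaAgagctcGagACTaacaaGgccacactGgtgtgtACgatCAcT
Iglc2: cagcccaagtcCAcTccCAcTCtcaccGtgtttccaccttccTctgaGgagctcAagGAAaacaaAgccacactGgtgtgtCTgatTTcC
Iglc3: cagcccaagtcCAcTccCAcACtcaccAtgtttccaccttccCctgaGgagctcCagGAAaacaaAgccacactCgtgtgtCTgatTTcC

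Ighd, the delta constant gene of resting B cells (chromosome 12, 113406604 to 113416324, minus strand), spanned a narrower range than Igkc. It stood at 148, 80.01 and 120 normalized counts in RORγt+ replicates 1 to 3 and at 95.7, 193 and 91.5 in the RORγt− libraries. It was highest in RORγt− replicate 2 and RORγt+ replicate 1, and lowest in RORγt+ replicate 2, where Igkc was highest. The groups overlapped (log2 fold change −0.08 ± 0.37, SE, limma adjusted p = 0.972), and the sign turned when RORγt+ replicate 2 or RORγt− replicate 2 was left out.

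The switched isotypes differed from library to library. Igha, the constant gene of IgA, stood at 5.49, 153 and 0 normalized counts in RORγt+ replicates 1 to 3 and at 2.36, 83.3 and 11.5 in RORγt− replicates 1 to 3. RORγt+ replicate 2 alone held 59.8% of its sum over the 6 libraries, RORγt− replicate 2 was next, and the groups overlapped (log2 fold change −0.61 ± 1.88, SE, limma adjusted p = 0.959). The means of Igha, 52.7 ± 86.6 and 32.4 ± 44.3 (SD, n = 3), ran the other way from this fold change on the log scale. Ighg1, the constant gene of IgG1, stood at 26.6, 49.1 and 0 against 0, 0.93 and 1.68. It was high in RORγt+ replicates 1 and 2 and listed at 0 in RORγt+ replicate 3. Its log2 fold change was 2.69 ± 1.42 (SE, limma adjusted p = 0.578). When RORγt+ replicate 3 was left out it was 4.43 ± 0.64 (limma adjusted p = 0.0406), and over all alternatives the adjusted p ran from 0.0406 to 0.891.

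Ighg2b stood at 46.5, 11.4 and 0 normalized counts in RORγt+ replicates 1 to 3 and at 5.27, 5.80 and 3.38 in the RORγt− libraries, with 64.3% of its sum in RORγt+ replicate 1 (log2 fold change 0.55 ± 1.29, SE, limma adjusted p = 0.940). Ighg2c stood at 0, 1.05 and 7.82 against 0.95, 9.33 and 1.71 (log2 fold change −0.53 ± 1.03, limma adjusted p = 0.923). The groups overlapped in both genes. Ighg3 ran the other way, at 5.06, 0 and 11.6 against 15.9, 45.3 and 29.4, and its groups did not overlap. The means of Ighg3 were 5.56 ± 5.83 and 30.2 ± 14.7 (SD, n = 3), with a log2 fold change of −2.76 ± 0.94 that did not pass the test (limma adjusted p = 0.344). Its highest library, RORγt− replicate 2, was also the highest of the 6 in Ighd, Ighg2c, Iglc1 and Iglc2. The 4 IgG genes share few windows with other genes, from 1.7% for Ighg1 to 15% for Ighg2c, and these are mostly shared among themselves.

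Jchain (chromosome 5), a gene of antibody-secreting cells, stood at 35.0, 45.7 and 13.6 normalized counts in RORγt+ replicates 1 to 3 and at 7.48, 25.1 and 5.80 in the RORγt− libraries. It followed the library order of Igkc at the top, where RORγt+ replicate 2 came first, then RORγt+ replicate 1, then RORγt− replicate 2. The means were 31.4 ± 16.4 and 12.8 ± 10.7 (SD, n = 3; log2 fold change 1.34 ± 0.67, limma adjusted p = 0.544). Jchain was the 1 member of the 38 with an entry in the RefSeq promoter table (GRCm38.p6). Its window of 300 bases held neither ATGCAAAT nor ATTTGCAT, the octamer of immunoglobulin promoters read on both strands, which 1.74% of the 32851 promoters in that table hold.

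**Figure D2:**
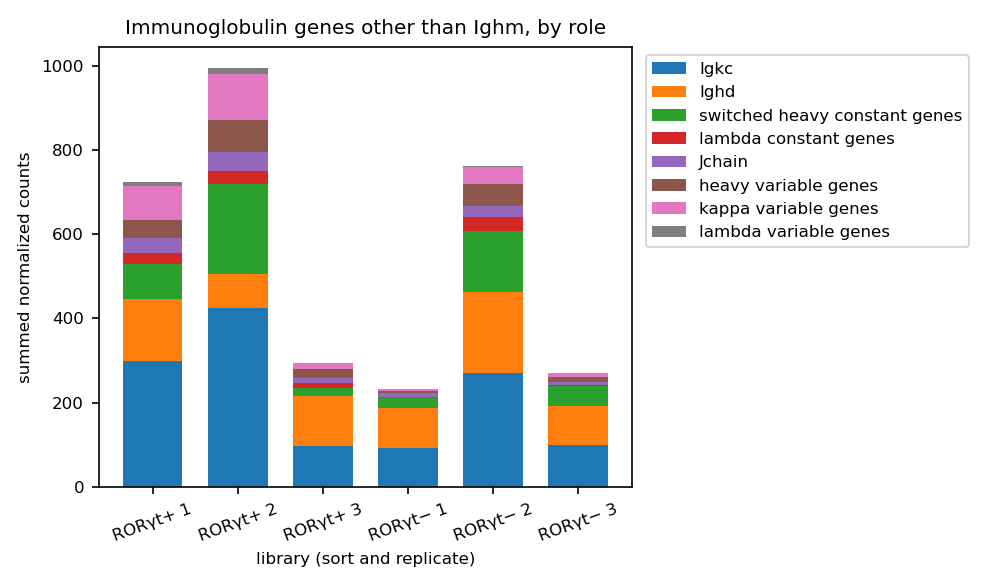
Summed normalized counts of the 37 members other than Ighm in each library, stacked by role from 0. RORγt+ replicates 1 and 2 and RORγt− replicate 2 hold 724, 996 and 763, and the other 3 libraries hold 233 to 293.

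Variable genes gave only scattered reads. A normalized count of 1 corresponds to about 1 read, since the value of a read lay between 0.821 and 1.242 in the 6 libraries. The highest variable gene in any library, Igkv10-96 in RORγt+ replicate 2, rested on about 36.8 reads, and 24 of the 26 variable genes never exceeded 15 reads. Together the 26 stood at 132, 200 and 34.0 normalized counts in RORγt+ replicates 1 to 3 and at 11.5, 95.3 and 22.7 in RORγt− replicates 1 to 3. The same 3 libraries that were high in Igkc were high here, with 24, 23 and 22 of the 26 genes above 0 in RORγt+ replicates 1 and 2 and RORγt− replicate 2. The other libraries, RORγt+ replicate 3 and RORγt− replicates 1 and 3, had 10, 8 and 12 above 0. A gene this low may have a row only through the libraries where it is high, which can widen the gap between these counts.

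In each of the 6 libraries Ighm exceeded the heavy variable genes by more than Igkc exceeded the kappa variable genes. Per kilobase, Ighm exceeded the sum of the 11 heavy variable genes 33.2-, 19.5- and 104-fold in RORγt+ replicates 1 to 3 and 331-, 36.6- and 141-fold in RORγt− replicates 1 to 3. Igkc exceeded the sum of the 13 kappa variable genes 2.61-, 2.70- and 5.6-fold and 10.7-, 4.83- and 6.48-fold in the same order. Both ratios were lowest in RORγt+ replicates 1 and 2 and RORγt− replicate 2. These ratios count only the variable genes with a row, 11 of 113 annotated heavy and 13 of 100 annotated kappa variable genes, and the others were not analysed here.

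Among the heavy variable genes, Ighv1-47 stood at 4.82, 8.24 and 14.8 normalized counts in RORγt+ replicates 1 to 3 and at 1.21, 1.07 and 1.93 in the RORγt− libraries. Its groups did not overlap (log2 fold change 1.99 ± 0.59, SE, limma adjusted p = 0.276). It was the 1 variable gene with its highest value in RORγt+ replicate 3, where 16 of the 26 were listed at 0. Ighv1-55 stood at 11.7, 3.99 and 3.73 against 1.02, 4.53 and 1.64, with 55.3% of its windows found in other genes. Ighv1-26 stood at 3.18, 12.0 and 1.25 against 2.04, 5.44 and 2.46, with 74.8% of its windows found elsewhere. Both were detected in all 6 libraries.

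Ighv1-9 and Ighv1-78 were highest in RORγt− replicate 2. Ighv1-9 stood at 2.16, 8.88 and 0 normalized counts in RORγt+ replicates 1 to 3 and at 1.04, 13.4 and 0.81 in the RORγt− libraries. Ighv1-78 was above 0 in RORγt+ replicate 2 (7.57) and RORγt− replicate 2 (10.9) and listed at 0 in the other 4.

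The kappa variable genes were led by different genes in different libraries. Igkv10-96 stood at 2.10, 36.7 and 0 normalized counts in RORγt+ replicates 1 to 3 and at 1.03, 2.73 and 0.82 in the RORγt− libraries, so that RORγt+ replicate 2 held 84.6% of its sum. Igkv1-135 led in RORγt+ replicate 1, at 19.0, 7.95 and 3.74 against 1.02, 0 and 0.82. Its groups did not overlap (log2 fold change 2.62 ± 0.73, SE, limma adjusted p = 0.241). Igkv1-117 stood at 6.33, 12.91 and 2.5 against 0, 3.63 and 0 (log2 fold change 2.09 ± 0.88, limma adjusted p = 0.452).

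Igkv9-120 and Igkv14-111 stayed below 10 normalized counts. Igkv9-120 stood at 8.46, 8.96 and 0 in RORγt+ replicates 1 to 3 and at 0, 5.45 and 0.82 in the RORγt− libraries. Igkv14-111 stood at 9.45, 2.97 and 1.25 against 2.06, 2.72 and 2.47, and was the kappa variable gene detected in all 6 libraries. The lambda variable genes Iglv1 (6.35, 2.99 and 0 against 0, 1.81 and 0) and Iglv3 (2.12, 10.95 and 0 against 0, 0.91 and 0) were above 0 in the same 3 libraries, RORγt+ replicates 1 and 2 and RORγt− replicate 2. Of the 26 variable genes, 11 were highest in RORγt+ replicate 2, 9 in RORγt+ replicate 1 and 4 in RORγt− replicate 2. Ighv1-7, Ighv14-2 and Igkv15-103, chosen after their values were seen, were listed at 0 in all 3 RORγt− libraries and had 91.2%, 92.9% and 92.4% of their sums in RORγt+ replicate 2. No window of Igkv15-103 occurs in another gene. The remaining 11 variable genes, 4 heavy and 7 kappa, reached at most 13.95 normalized counts in any library, the value of Igkv3-4 in RORγt+ replicate 2, named only as that maximum.

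**Figure D3:**
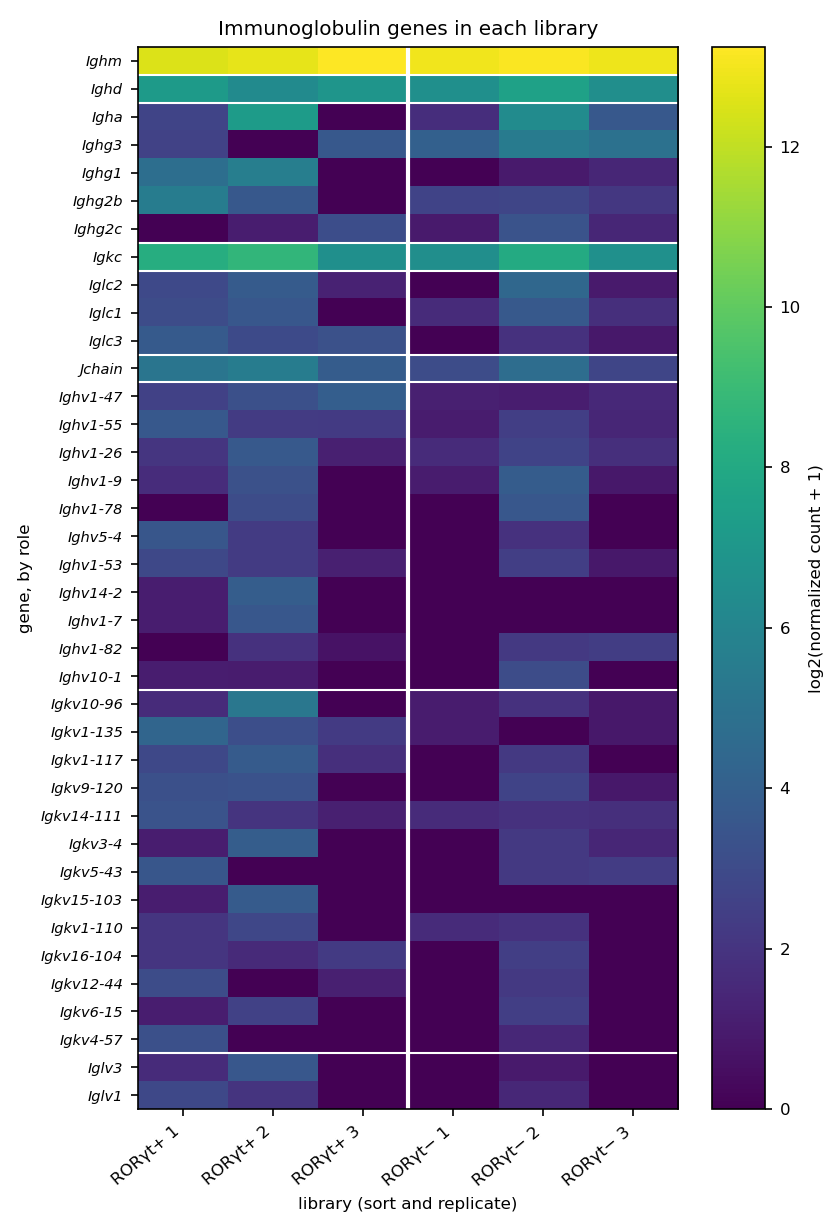
Level of each of the 38 immunoglobulin genes, as log2(normalized count + 1), in each of the 6 libraries, with genes ordered by role. Ighm is high in all 6 libraries, and most variable genes are above 0 in RORγt+ replicates 1 and 2 and RORγt− replicate 2.

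The design sets RORγt+ Tregs against CCR6+ Tregs without RORγt. At an adjusted p under 0.05 (limma, Benjamini-Hochberg), 0 of the 38 immunoglobulin genes were called, 0 higher and 0 lower, where 0.564% of all 15944 genes were called, 0.32% higher and 0.245% lower. An unadjusted p under 0.05 was reached by 5 of the 38 (13.2%), 4 higher and 1 lower in RORγt+ Tregs, against 10.9% of all genes. That number was not stable: it was 16 of the 38 without RORγt+ replicate 3 and 13 with array weights. In the other settings it was 3 to 6, or 1 of the 8 genes left by a mean filter. The share of all genes in those fits was not counted. The groups did not overlap in 4 of the 38 (10.5%), against 18.1% of all genes. Higher without overlap were Iglc3, Ighv1-47 and Igkv1-135, where 8.31% of all genes were, and lower without overlap was Ighg3, where 9.81% were.

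Log2 fold changes were above 0 in 27 of the 38 genes (71.1%) and below 0 in 11, where 48.8% of all genes were above 0. The median was 0.72 against −0.011 over all genes. These signs depend on the log scale. Igha, Iglc1 and Igkv5-43 counted below 0 with higher means in RORγt+ (52.7 against 32.4, 6.14 against 5.43 and 3.52 against 2.58). Igkv5-43 was chosen after its values were seen. Iglc2 was the reverse (7.02 against 7.10). Ighv1-7, Ighv14-2 and Igkv15-103, at 0 in every RORγt− library, could only fall on the higher side. Over the 35 genes with a value above 0 in both sorts, 24 fold changes were above 0 and 11 below, with a median of 0.585. Among these 35, 18 of the 23 variable genes (78.3%) had a fold change above 0, against 48.8% of all genes. Variable genes this low may have a row only through the libraries where they are high, most often RORγt+ replicates 1 and 2. The count is therefore not read as a difference between the sorts. These genes moved together from library to library, so the count is not one of independent genes. Without Ighm, the summed immunoglobulin level was 724, 996 and 293 normalized counts in RORγt+ replicates 1 to 3 and 233, 763 and 271 in RORγt− replicates 1 to 3, so the sorts overlapped. Within the RORγt+ sort the sum varied more, from 293 to 996, than the sort means of 671 ± 354 and 422 ± 295 (SD, n = 3) differed.

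**Figure D4:**
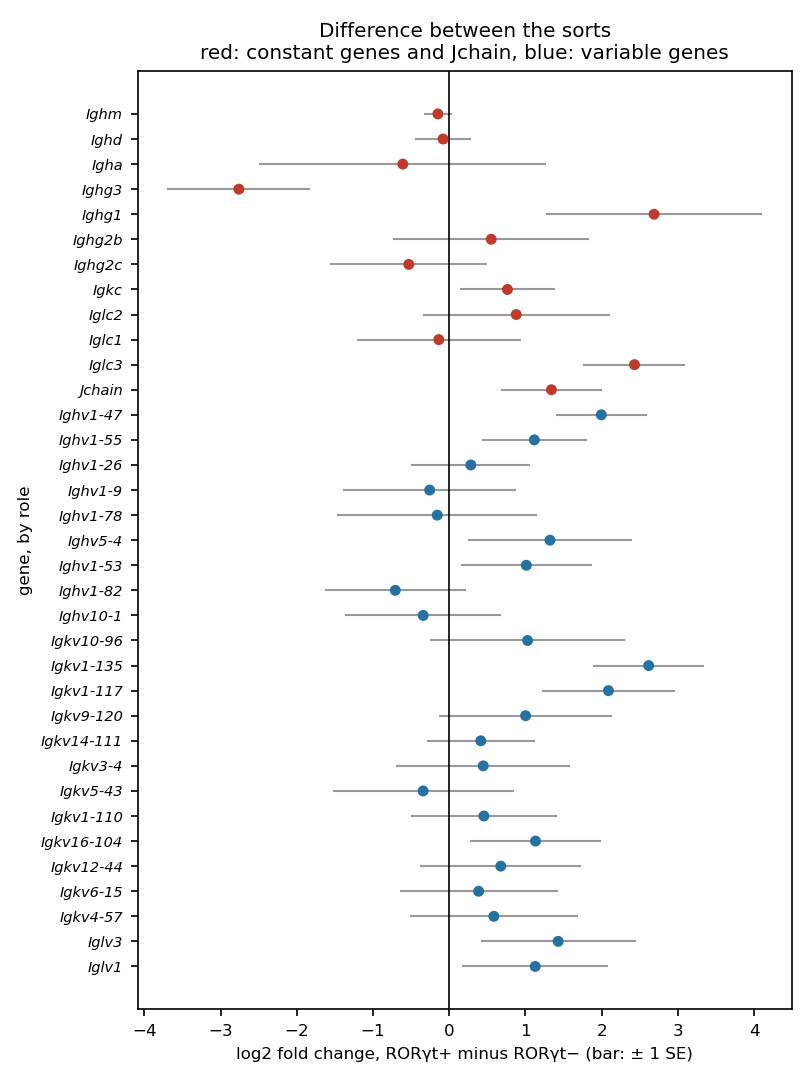
Log2 fold change of each immunoglobulin gene, RORγt+ minus RORγt−, on the log2(normalized count + 1) scale, with bars of 1 SE (n = 3 per sort); red points are constant genes and Jchain, blue points variable genes. The 3 genes listed at 0 in every RORγt− library are left out, and no gene passes the adjusted threshold.

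Markers of B cells were read in the same libraries, since spleen is rich in B cells. All 18 genes of the B cell list were measured, and none passed the test (lowest limma adjusted p = 0.436), where 0.564% of all genes were called. A limma unadjusted p under 0.05 was reached by 2 of the 18 (11.1%), 1 higher and 1 lower, against 10.9% of all genes. The list sets 3 of the 18 apart as genes T cells also express, Cd37, Blk and Cxcr5. The other 15 summed to 737 to 1231 normalized counts in the RORγt+ libraries and to 831 to 1187 in the RORγt− libraries. The highest means of the 15 were those of Cd72 (235 to 356), Cd79b (151 to 223) and Cd22 (26.8 to 312). Cd72 and Cd79b were fairly even across libraries, but Cd22 was not. It was lowest in RORγt+ replicate 2 and highest in RORγt− replicate 1 (log2 fold change −1.53 ± 0.63, SE, limma adjusted p = 0.436). RORγt− replicate 1 had 4 of the 15 at 0 (Cr2, Fcer2a, Fcrla and Ebf1), RORγt+ replicate 2 had 1 at 0 (Ebf1), and the other 4 libraries had none.

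Defining B cell genes, named here after their values were seen, differed by library. Ms4a1, which encodes CD20, stood at 66.2, 18.8 and 5.38 normalized counts in RORγt+ replicates 1 to 3 and at 2.0, 21.7 and 6.78 in the RORγt− libraries. The antigen receptor subunit Cd79a stood at 51.5, 11.01 and 27.3 against 8.12, 48.0 and 10.6. RORγt+ replicate 1 was highest in both, and RORγt− replicate 2 came next. Of the 15 genes, 14 had RORγt+ replicate 1 among their 3 highest libraries, 14 had RORγt− replicate 2 and 5 had RORγt+ replicate 2. Of the 37 immunoglobulin genes other than Ighm, 32, 33 and 31 had these libraries, in that order, among their 3 highest, with ties counted in. A library listed at 0 could therefore count, as RORγt− replicate 2 did for Ighv1-7, Ighv14-2 and Igkv15-103. No such ties entered the B cell counts, so the counts are not fully alike. The difference between these counts was not tested.

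**Figure D5:**
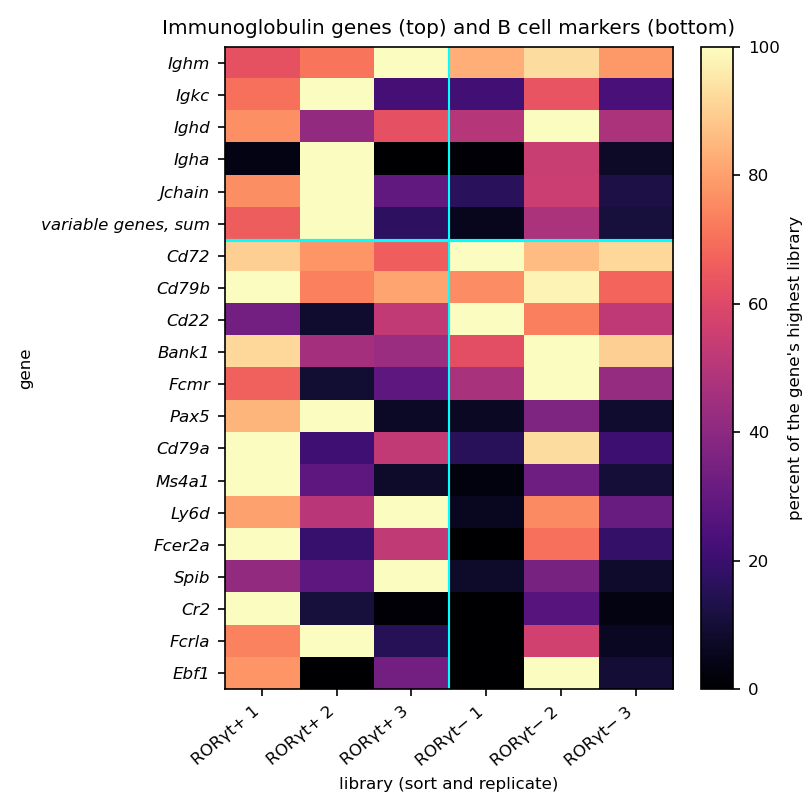
Each row gives a gene's normalized count in the 6 libraries as a percent of its highest library, for 5 immunoglobulin genes and the summed variable genes (above the line) and 14 of the 15 B cell markers (below it, by mean level). RORγt+ replicate 2 is the highest library for Igkc, Igha, Jchain and the variable genes. Ms4a1 and Cd79a are highest in RORγt+ replicate 1. Of all 15 markers, 6, 2 and 2 are highest in RORγt+ replicates 1 to 3, and 2, 3 and 0 in RORγt− replicates 1 to 3.

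Markers of antibody-secreting cells did not pass either. Of the 16 listed, 15 were measured, and 0 were called, with 10 log2 fold changes above 0 and 5 below. Over all genes 0.564% were called. A limma unadjusted p under 0.05 was reached by 5 of the 15 (33.3%), 3 higher and 2 lower, against 10.9% of all genes. The lowest limma adjusted p, 0.0857, was that of Slamf7, a surface receptor of lymphocytes and plasma cells, which was lower in RORγt+ Tregs, at 48.5, 57.3 and 33.5 normalized counts against 112, 131 and 157 (log2 fold change −1.52 ± 0.28, SE). The list sets 6 of the 15 apart as genes T cells also express. Whether T cells express the other 9 was not tested. These 9 summed to 1945 to 2090 normalized counts in the RORγt+ libraries and 1473 to 1741 in the RORγt− libraries, without overlap. Most of that sum lay in Txndc5 (801, 795 and 910 against 585, 634 and 486) and Tnfrsf13b (901, 797 and 734 against 681, 644 and 621), neither of which passed (limma adjusted p = 0.231 and 0.458). Pou2af1, a coactivator of octamer-binding factors, lay the other way without overlap, at 72.5, 75.9 and 98.0 against 139, 166 and 110 (log2 fold change −0.74 ± 0.25, limma adjusted p = 0.332), and Creld2 overlapped between the sorts (log2 fold change −0.096). Of the genes T cells share, Edem1, Xbp1 and Irf4, the 3 most abundant, had log2 fold changes of 0.25, 0.32 and 0.10, and Ell2 and Prdm1 of −0.52 and −0.085. Mzb1, a chaperone of antibody assembly, was above 0 in RORγt+ replicates 1 (3.18) and 2 (6.94) and listed at 0 in the other 4 libraries. Sdc1, which encodes the plasma cell surface protein CD138, stood at 15.1, 7.02 and 9.53 against 1.95, 6.49 and 1.48. Txndc5, Creld2, Ell2, Prdm1, Slamf7, Mzb1 and Sdc1 were chosen after their values were seen.

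Other lists gave no call either. With 0.564% of all genes called, 0 in a list this short carries little information. In the B cell receptor signalling list 0 of 14 measured genes passed (lowest limma adjusted p = 0.128), with 8 log2 fold changes above 0. A limma unadjusted p under 0.05 was reached by 5 of the 14 (35.7%), 2 higher and 3 lower, against 10.9% of all genes. Among factors of immunoglobulin transcription 0 of 8 passed (lowest limma adjusted p = 0.11). Of the 8, 4 (50%) had a limma unadjusted p under 0.05, 2 higher and 2 lower. The octamer-binding factor Pou2f2 stood at 1363, 1549 and 1349 normalized counts against 2191, 2070 and 2093, without overlap. Pax5, the B cell identity factor, stood at 100, 118 and 8.37 against 8.07, 43.4 and 10.6, high in the same 3 libraries as Igkc, and was chosen after its values were seen. Ebf1 and Spib of the same list, chosen in the same way, did not share that pattern. Ebf1 stood at 9.94, 0 and 4.3 against 0, 12.8 and 1.26. Spib stood at 13.5, 9.25 and 32.7 against 2.56, 11.4 and 2.74, highest in RORγt+ replicate 3. In the class II antigen presentation list 0 of 8 passed, and 0 had a limma unadjusted p under 0.05. Its sums were 1459 to 2152 and 1342 to 2204. Of 7 measured immunoglobulin receptors 0 passed (lowest limma adjusted p = 0.261), and 2 (28.6%) had an unadjusted p under 0.05, 1 higher and 1 lower. The part that B cells or antibody-secreting cells played in the immunoglobulin values was not tested.

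Genes of other blood cells also differed between libraries. The monocyte and macrophage list, 4 of 8 genes measured, summed to 101, 136 and 54.7 normalized counts in RORγt+ replicates 1 to 3 and to 19.8, 43.0 and 23.2 in the RORγt− libraries, without overlap, and 0 of the 4 passed (lowest limma adjusted p = 0.327). A limma unadjusted p under 0.05 was reached by 1 of the 4 (25%), higher in RORγt+, against 10.9% of all genes. Lyz2, the lysozyme of myeloid cells, and S100a9, a granulocyte protein, were highest in RORγt+ replicate 2, at 81.6 and 17.8 normalized counts. The other 3 of the monocyte list were highest elsewhere: Itgam in RORγt+ replicate 1 at 55.7, and Csf1r and C1qa in RORγt+ replicate 3 at 9.04 and 13.4, with C1qa at 0 in RORγt+ replicate 2. The haemoglobin gene Hba-a2 was highest in RORγt− replicate 2 at 3097 normalized counts, against 35.4 to 608 in the other 5 libraries. The part of these cells in the immunoglobulin values was not tested.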

How the data were processed

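RNA from 6 libraries of sorted splenic Tregs was sequenced in bulk. The authors deposited 1 table with a signal value per gene and library, normalized counts to 2 decimals. Per the submitters' processing notes, the tools were Salmon 1.2.0 and DESeq2 (version not given) and the build was GRCm38. What each tool did, the annotation and any filter are not stated. The lowest gene mean in the table is 1.15. Values of 1 read were estimated per library from the spacing of low values; 51.7% to 69.3% of values up to 20 reads lay within 0.1 read of a whole number, so reads were not recovered and depths are approximate.

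Values were analysed as log2(value + 1) with limma 3.58.1 in R 4.3.3 on all 15944 genes without a filter (group as the only term, variances moderated along an intensity trend, two-sided p-values adjusted by Benjamini-Hochberg, called under 0.05). Fold changes on this scale understate those of low genes. Levels were compared between genes per kilobase of the longest GENCODE M21 transcript. The fit was checked on simulated counts in which only genes with a mean above 20 were changed. Of the 38 immunoglobulin genes, 5 reached a mean of 20, so the check does not cover changes in the lower ones.

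The immunoglobulin genes, marker lists and tests were chosen with earlier results of these data known. The rule for named genes takes the constant genes and Jchain, the 5 highest heavy and kappa variable genes, both lambda variable genes, members past the threshold, those with over 50% of their sum in 1 library at a mean of at least 20, the 3 largest changes each way at a mean of at least 5, and the 4 highest markers per list. Of those markers, only ones beside an immunoglobulin result are printed; markers at 0 or that define a cell type, and names said to be chosen later, lie outside the rule. Alternatives were other pseudocounts, scalings, a mean filter, robust variances, array weights, a replicate block and each library left out. A B cell marker, counted in its lists, is not reported here by itself.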

Additional observations from a re-analysis of the deposited data

How the results depend on the processing

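Under pseudocounts of 0.1 and 5, scaling to upper quartiles or to library totals (with or without the immunoglobulin genes), a mean of at least 10 (8 genes left), robust variances, array weights and a replicate block, 0 of the 38 immunoglobulin genes passed. With the replicate block the lowest adjusted p was 0.526, and over all genes same-numbered libraries deviated with correlations of −0.105, −0.022 and −0.184, so the numbers were not taken as pairs. With the block the SE was 1.02 in place of 1.88 for Igha and 0.37 in place of 0.62 for Igkc. Leaving out 1 library gave 0 to 1 calls, and the 1 was Ighg1 without RORγt+ replicate 3. Of all 15944 genes, the main fit called 90 and the replicate block 1. Array weights called 358 of all genes, and leaving out RORγt+ replicate 3 called 174. Each other library left out gave 4 to 10 calls over all genes. Where so few genes were called, 0 of the 38 carries little information. Array weights called 1 of the 33 B cell and plasma cell markers, Slamf7 (adjusted p = 0.0299; the cause was not tested). The log2 ratio of the summed level was −0.073, and 0.67 without Ighm; leaving out 1 library gave −0.24 to 0.048, and without Ighm 0.27 (RORγt+ replicate 2 left out) to 1.41 (RORγt− replicate 2 left out). Signs turned for Igha (0.58), Ighv1-78 (0.12), Ighv1-9 (0.27) and Iglc1 (0.63) with array weights, for Ighg2b with pseudocount 0.1 (−0.35) and for Iglc1 with pseudocount 5 (0.057). When a library was left out, log2 fold changes ranged from −2.58 to 1.05 for Igha, −0.28 to 0.26 for Ighd, −0.70 to 2.08 for Ighg2b, −1.41 to 0.19 for Ighg2c, −0.41 to 0.85 for Ighv1-26, −1.19 to 1.03 for Ighv1-78, −1.08 to 0.71 for Ighv1-9, −0.45 to 2.17 for Igkv10-96, −0.19 to 0.92 for Igkv14-111, −0.82 to 0.97 for Iglc1 and −0.018 to 2.19 for Iglc2; the cause was not tested. The other 13 genes tested so kept their sign, among them Igkc (0.32 to 1.39), Ighg1 (1.60 to 4.43), Ighg3 (−3.55 to −1.72), Jchain (0.96 to 1.93), Igkv9-120 (0.41 to 2.09), Ighv1-55 (0.65 to 1.54), Iglv1 (0.50 to 1.94) and Iglv3 (0.51 to 2.30). Variable genes rest on few reads. RORγt− replicate 3, the deepest at about 14500000 reads, had 12 of 26 above 0, and RORγt+ replicate 1, at 10800000, had 24. RORγt− replicate 1, at 11200000, had the fewest, 8. RORγt+ replicate 3, the shallowest at 9220000, had 10. It also lacked signal for more of the 15944 genes than any other library did, 1247 of them. The part of depth in these numbers was not tested.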
